A study of Mus musculus with 2 samples.

Results

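Hox genes encode homeodomain transcription factors that sit side by side in 4 chromosomal clusters, Hoxa to Hoxd. They were taken here as the probe sets whose platform annotation gave a single symbol made of a cluster letter and a paralog number. The rule found 37 probe sets, 1 for each of 37 genes, of 28944 probe sets in the table. Hoxb8 was not among them and was named only on a probe set that it shares with Hoxb7, at an intensity of 34.0 on the HMGN1 virus array and 40.8 on the control virus array.

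The study used neural precursor cells from the forebrain of E11.5 Jcl:ICR mouse embryos, infected with a retrovirus that carries HMGN1, a chromatin protein that binds nucleosomes, or with a control retrovirus. Both groups were replated 3 days after infection on poly-D-lysine and cultured for 1 further day after withdrawal of the mitogens FGF2 and EGF. Total RNA of each group was hybridised to 1 whole-transcript array, so the series holds 2 arrays, with no replicates, no test between the groups and no p-value. The number of arrays limits the precision, and every difference below describes these 2 RNA samples. In a bulk sample, fewer cells that use a gene cannot be told apart from less RNA per cell.

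Along the body axis, genes at the 3' end of each cluster (low paralog numbers) are switched on earlier and further forward than those at the 5' end (high numbers). In the neural tube their domains cover the hindbrain and spinal cord, where they give segments and motor neurons their identity, and stop short of the forebrain. Where a cluster is not in use it is held silent by Polycomb complexes, which place methyl marks on histone H3 and compact the chromatin. The comparison asks which Hox probe sets gave a signal above background in these forebrain cultures, and whether the HMGN1 virus moved any of them.

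Background was set by olfactory receptor probe sets, a family used in the nasal epithelium and hardly in precursor cells. The 95th percentile of 1035 such probe sets gave a floor of 83.4 on the HMGN1 virus array and 88.7 on the control virus array. A gene counted as above background if it passed the floor of at least 1 array. Of 37 Hox genes, 4 did so, or 10.8%, against 58.3% of all 19938 genes and, largely by construction, 5.94% of the olfactory receptor genes. All 4 passed on both arrays. They were Hoxb3, Hoxa4, Hoxb1 and Hoxb9, and 33 Hox genes stayed under the floor on both arrays. Probe sets differ in how strongly they bind, so an intensity was read against the floor and not as an amount of RNA relative to another gene.

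**Figure D1:**
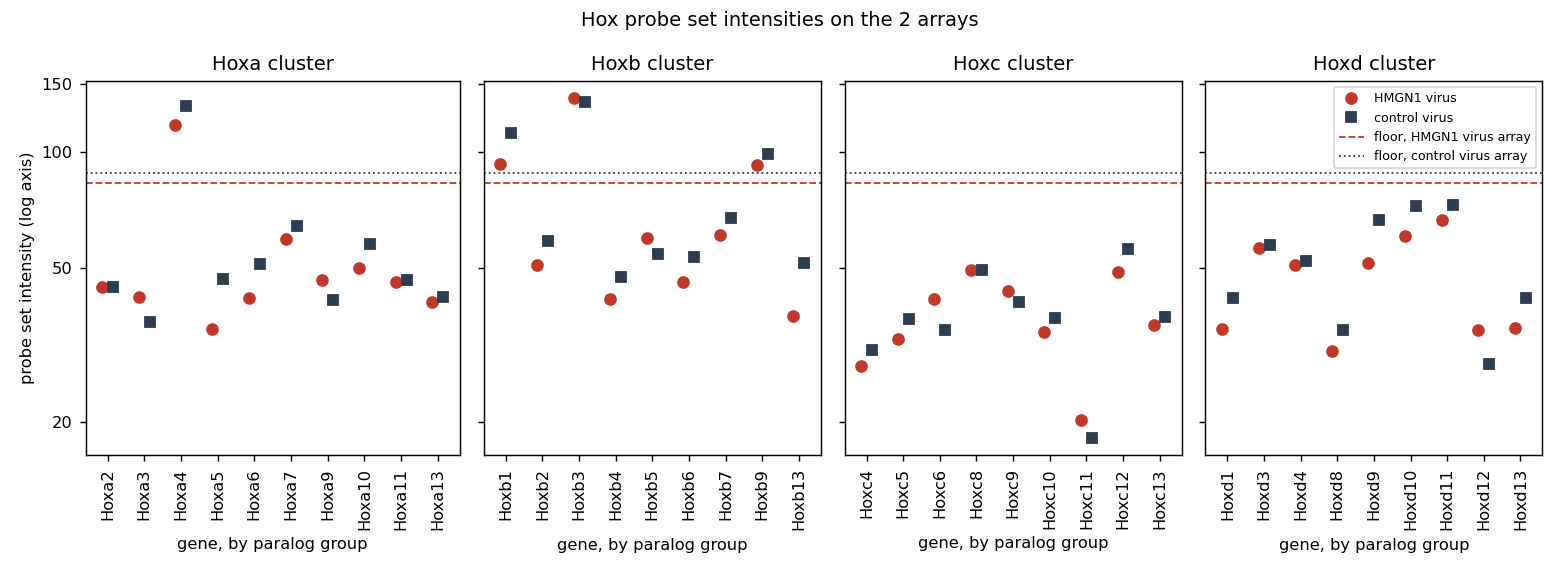
Intensity of each Hox probe set on the HMGN1 virus array (circles) and the control virus array (squares), on a log axis, by cluster and paralog group; horizontal lines mark the floor of each array. Hoxa4, Hoxb1, Hoxb3 and Hoxb9 lie over both lines and the other 33 genes lie under them.

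Hoxb3, which acts in the hindbrain segments and their motor nuclei, had an intensity of 138 on the HMGN1 virus array and 135 on the control virus array, a log2 difference of 0.03 with an offset of 16. Hoxb3 was the only member of the 4 that was higher with the HMGN1 virus, and by less than the SD of 0.0909 found between probe sets of 1 gene over 699 genes. Hoxa4, a gene of the caudal hindbrain and neck level, had 118 with the HMGN1 virus and 132 with the control virus, a difference of -0.15. Hoxb1, which sets the identity of the fourth hindbrain segment, had 93.1 with the HMGN1 virus and 113 with the control virus, a difference of -0.24, or 1.18-fold lower. Hoxb9, a posterior gene of the thoracic cord and trunk, had 92.8 with the HMGN1 virus and 99.1 with the control virus, a difference of -0.08. Hoxb1 thus had the largest difference of the 4, beyond the SD of 0.156 of the olfactory receptor genes and inside their range of -0.76 to 0.55, and Hoxb1 and Hoxb9 lay close to the floor on the HMGN1 virus array.

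These 4 genes do not form a block. They sit in paralog groups 1, 3, 4 and 9, and 3 of them are in the Hoxb cluster. By cluster, 1 of 10 Hoxa genes, 3 of 9 Hoxb genes, 0 of 9 Hoxc genes and 0 of 9 Hoxd genes were above background. By position, 2 of 7 anterior genes (groups 1 to 3), 1 of 14 central genes (groups 4 to 8) and 1 of 16 posterior genes (groups 9 to 13) were. Their direct neighbours were under the floor. Hoxb2, between Hoxb1 and Hoxb3, had 51.0 with the HMGN1 virus and 59.1 with the control virus, and Hoxb4, whose gene lies inside the long annotated span of Hoxb3, had 41.8 with the HMGN1 virus and 47.5 with the control virus. Hoxa2, the Hox gene with the most forward limit of use in the hindbrain, had the same deposited value of 44.6 on both arrays. Such identical pairs made up 749 probe sets of the whole table, or 2.59%, and 2 of the 37 Hox genes, or 5.41%, and how they arose is not stated in the labels or the table.

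The signal of Hoxb1 was also set beside that of its paralog Hoxd1, which had 34.8 with the HMGN1 virus and 42.0 with the control virus, under both floors. Both promoters are printed because this pair shares a paralog group and falls on opposite sides of the floor. The windows run from 250 bases before to 50 bases after the annotated start, are credited to RefSeq (GRCm38.p6) and are given on the plus strand, Hoxb1 at chr11:96365508-96365807 and Hoxd1 at chr2:74762730-74763029. Capitals mark TGATNNAT, searched on both strands, a core to which Pbx and Hox proteins bind together.
Hoxb1: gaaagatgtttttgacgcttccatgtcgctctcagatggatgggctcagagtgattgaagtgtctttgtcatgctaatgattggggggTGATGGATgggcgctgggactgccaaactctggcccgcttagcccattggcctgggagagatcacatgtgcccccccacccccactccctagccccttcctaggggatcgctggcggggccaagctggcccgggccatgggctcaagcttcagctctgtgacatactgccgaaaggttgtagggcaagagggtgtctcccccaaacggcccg
Hoxd1: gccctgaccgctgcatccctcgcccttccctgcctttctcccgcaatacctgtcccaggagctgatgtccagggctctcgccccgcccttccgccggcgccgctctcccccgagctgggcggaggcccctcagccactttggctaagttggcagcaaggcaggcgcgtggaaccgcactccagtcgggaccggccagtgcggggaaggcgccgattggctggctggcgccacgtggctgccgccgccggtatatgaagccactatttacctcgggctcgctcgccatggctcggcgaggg
The Hoxb1 window holds the core once and the Hoxd1 window does not hold these letters. RefSeq windows were matched for 21 of the 37 Hox genes. Hoxb3, Hoxa4 and Hoxb9, the other genes above background, had no matched window, and Hoxc4 was the only Hoxc gene with one. Of the 21, 2 hold the core (Hoxb1 and Hoxa2), a share of 9.52% against 9.04% of 27025 promoters. The core thus does not set these windows apart. Hox windows were richer in CG dinucleotides than promoters at large, with 10 in Hoxb1, 29 in Hoxd1 and a median of 14 over the 21 (range 4 to 45), against a median of 7 in all promoters. The 944 olfactory receptor promoters had a median of 1. These counts describe promoters and not the sequences that the probe sets read. How base composition bears on probe set signal was not tested.

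Just outside the threshold, Hoxd11, a posterior gene of limb and lumbar level, had 66.9 with the HMGN1 virus and 72.9 with the control virus. Just inside it was Hoxb9. No Hox probe set lay between 66.9 and 92.8 on the HMGN1 virus array. The 33 genes under the floor ran from 20.2 to 66.9 with a median of 43.7 on the HMGN1 virus array and from 18.1 to 72.9 with a median of 47.1 on the control virus array. Hoxc11 had the lowest intensity on both arrays, at 20.2 with the HMGN1 virus and 18.1 with the control virus. The olfactory receptor probe sets had medians of 40.7 on the HMGN1 virus array and 43.1 on the control virus array. They also set the floor, so that genes under it fall in their range follows by construction.

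No Hox gene reached 1.5-fold in either direction. Of the 4 above background, 0 were 1.5-fold higher and 0 were 1.5-fold lower, where the share among 11617 genes above background was 0.0% for higher and 0.0689% for lower. Without regard to level the counts were again 0 and 0 of 37, against 0.015% higher and 0.0602% lower over all genes. These shares are so low that 0 of 37 does not set the Hox genes apart. For comparison, Hmgn1 itself had 348 with the HMGN1 virus and 229.7 with the control virus, a log2 difference of 0.57. With the offset added, Hmgn1 also fell short of 1.5-fold, and no gene above background was 1.5-fold higher. This size therefore missed the gene carried by the virus, and 0 Hox genes at 1.5-fold does not speak to smaller differences.

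Small differences ran mostly to lower values with the HMGN1 virus. Of the 37 genes, 27 were lower, 8 higher and 2 (Hoxa2 and Hoxc8) identical, with a median of -0.09 and an SD of 0.134. Among the 33 under the floor 24 were lower, or 72.7%, against 56.3% of all 8321 genes under the floor, whose median was -0.03. Among the 4 above it 3 were lower, against 38.1% lower and 60.4% higher of all genes above background. Of 1027 olfactory receptor genes 61.5% were lower, with a median of -0.05. Their SD of 0.156 was wider than that of the Hox genes. A list of 25 patterning factors mainly of tissues outside the brain had 19 lower and a median of -0.11. Some of its members, such as Pax3, Pax7, Msx1 and Msx2, are also used in the neural tube. That list was brighter than the Hox genes. The Hox genes had median intensities of 46.0 on the HMGN1 virus array and 49.6 on the control virus array, and the list had 64.9 on the HMGN1 virus array and 67.3 on the control virus array.

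The lowest differences belonged to Hoxb13 (-0.33), Hoxa5 (-0.31) and Hoxd9 (-0.29). Hoxb13, a gene of the tail end of the embryo and the prostate, had 37.7 with the HMGN1 virus and 51.7 with the control virus. Hoxa5, known for its part in lung and trunk patterning, had 34.8 with the HMGN1 virus and 47.1 with the control virus. Hoxd9, a gene of the lumbar cord and limb, had 51.7 with the HMGN1 virus and 66.9 with the control virus. The highest differences belonged to Hoxd12 (0.19), Hoxc6 (0.19) and Hoxa3 (0.15). Hoxd12, a digit patterning gene, had 34.6 with the HMGN1 virus and 28.3 with the control virus, Hoxc6 had 41.5 with the HMGN1 virus and 34.6 with the control virus, and Hoxa3, needed for the thymus and parathyroid, had 42.2 with the HMGN1 virus and 36.4 with the control virus. All 6 lay under the floor on both arrays, so these are differences between background signals and no fold is given. By cluster, the median difference was -0.06 for Hoxa, -0.14 for Hoxb, -0.05 for Hoxc and -0.12 for Hoxd. The median over all olfactory receptor genes was -0.05.

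**Figure D2:**
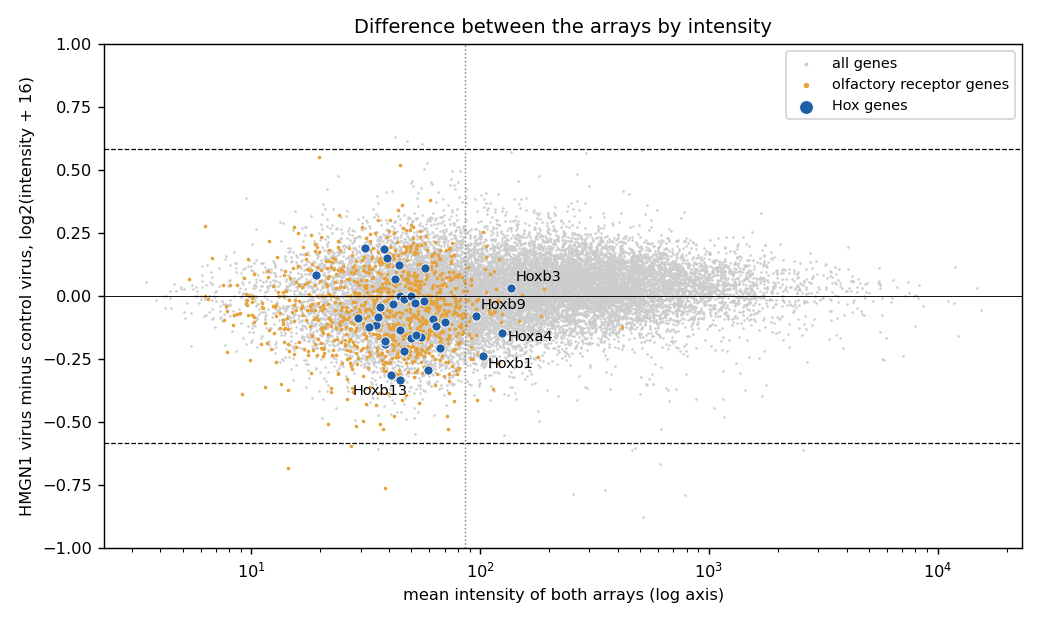
Log2 difference (HMGN1 virus minus control virus, offset 16) against the mean intensity of both arrays, on a log axis, for all genes (grey), olfactory receptor genes (orange) and Hox genes (blue); dashed lines mark 1.5-fold and the dotted line the mean of both floors. The Hox genes lie between -0.33 and 0.19, inside the cloud of olfactory receptor genes and inside the 1.5-fold lines.

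Protein-coding genes beside the clusters were above background more often than the Hox genes. Among the first 4 protein-coding genes with a probe set on each side of each cluster, a rule set after the intensities were seen, 24 of 32 were above background, where the share over all genes was 58.3%. A separate list of 19 analysed genes inside or beside the clusters, noncoding RNA genes included, had 6 above background, or 31.6%. The share of neighbours above background thus depends on which genes are counted. The flanks of the 4 clusters carry related genes. The heterochromatin protein genes lay on the paralog group 1 side, with Cbx3 near Hoxa at 1141 on the HMGN1 virus array and 1199 on the control virus array, Cbx1 near Hoxb at 461 with the HMGN1 virus and 441 with the control virus, and Cbx5 near Hoxc at 1544 with the HMGN1 virus and 1396 with the control virus. Genes of ATP synthase subunit c lay on the other side of 3 clusters, namely Atp5g1 near Hoxb at 1676 with the HMGN1 virus and 1654 with the control virus, Atp5g2 near Hoxc at 2212 with the HMGN1 virus and 2245 with the control virus, and Atp5g3 near Hoxd at 1492 with the HMGN1 virus and 1412 with the control virus. All 6 were far over the floor on both arrays.

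The step from signal to background fell at the cluster edge on some sides and further out on others. Mtx2, a mitochondrial import gene next to Hoxd1, had 420.0 with the HMGN1 virus and 403 with the control virus, and Calcoco1, next to Hoxc13, had 833 with the HMGN1 virus and 826 with the control virus. Skap1, an adaptor of T cells next to Hoxb1, was under the floor at 42.2 with the HMGN1 virus and 42.5 with the control virus. Its relative Skap2 on the Hoxa side was also under it, at 75.5 with the HMGN1 virus and 76.0 with the control virus. So were Ttll6, next to Hoxb13, at 54.1 with the HMGN1 virus and 49.4 with the control virus, and Smug1, next to Hoxc4, at 72.1 and 67.8. The even-skipped homeobox genes, which sit beyond the group 13 genes, divided, with Evx1 next to Hoxa13 at 51.9 with the HMGN1 virus and 59.6 with the control virus, and Evx2 next to Hoxd13 at 96.2 with the HMGN1 virus and 105 with the control virus, just over the floor. Hibadh, a valine breakdown enzyme beyond Evx1, had 532 with the HMGN1 virus and 483 with the control virus on its brightest probe set. A further Hibadh probe set was under the floor, at 8.57 with the HMGN1 virus and 7.83 with the control virus. Lnpk, beyond Evx2, had 240.4 with the HMGN1 virus and 215 with the control virus (0.15).

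**Figure D3:**
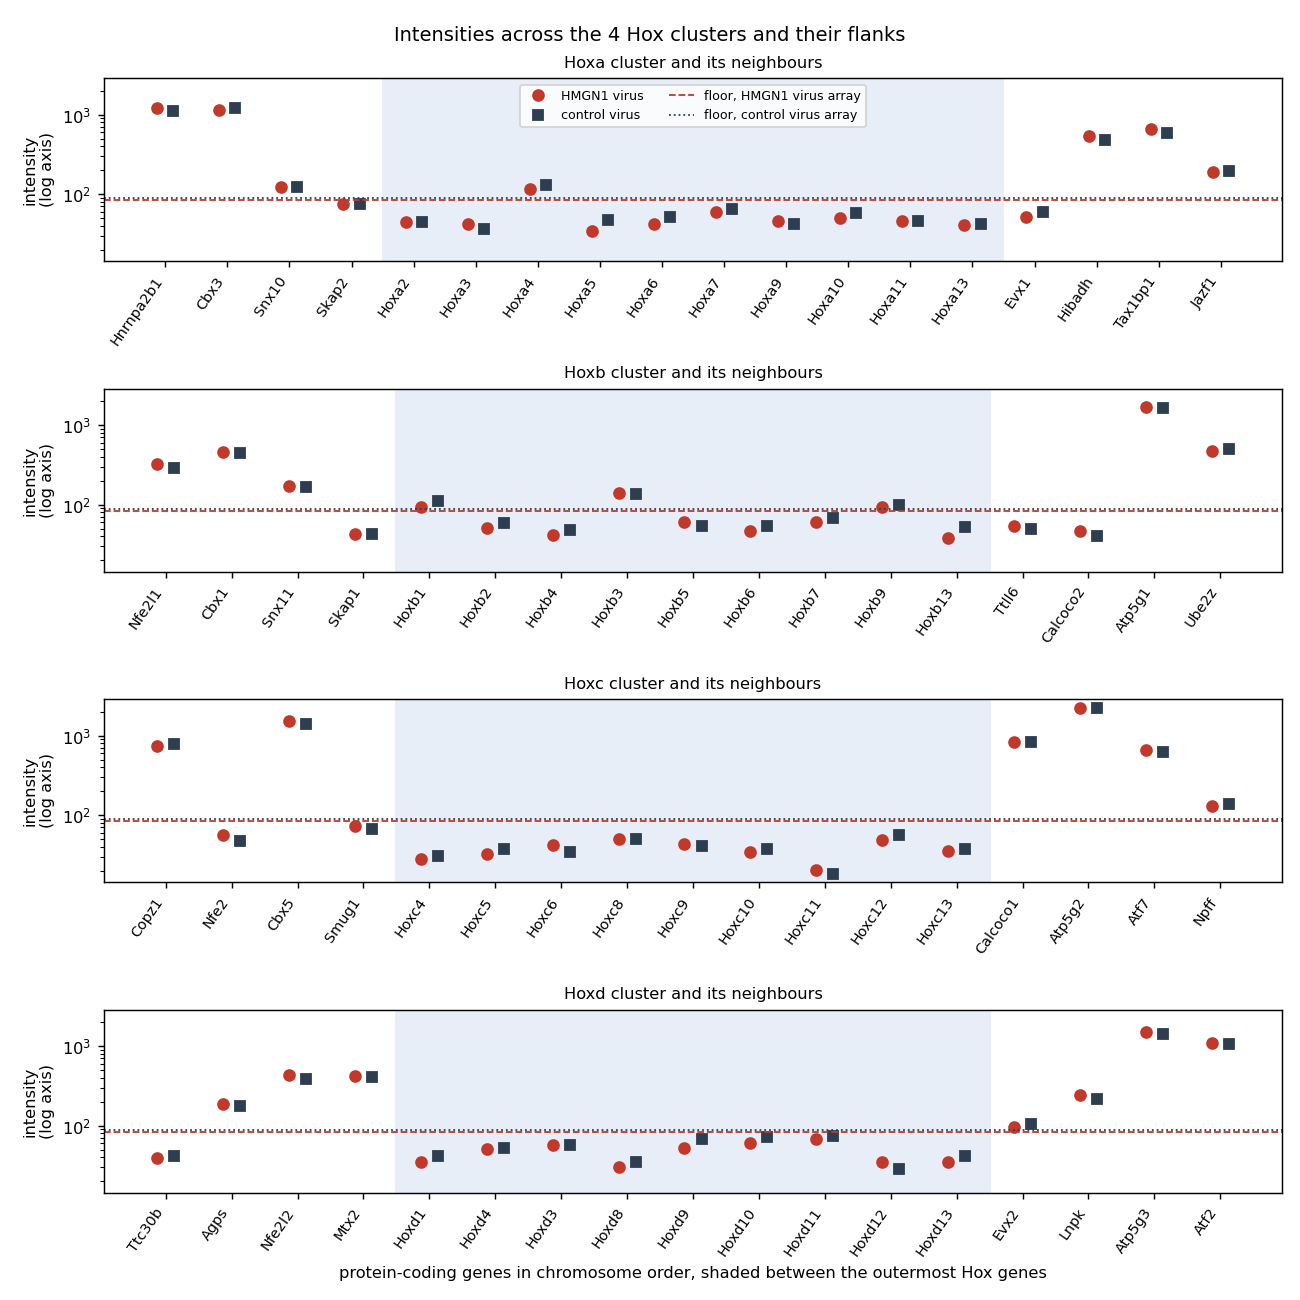
Intensity (log axis) of protein-coding genes in chromosome order across each Hox cluster (shaded) and 4 genes on either side, for the HMGN1 virus array (circles) and the control virus array (squares), with the floor of each array as a line. Of the Hox genes 4 of 37 lie over a floor, against 24 of 32 flanking genes and 58.3% of all genes.

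The clusters also carry microRNA genes, whose mature sequences are shown with bases 2 to 8, the seed, in capitals, because the families repeat between clusters as the Hox genes do (RefSeq, GRCm38.p6).
miR-10a-5p: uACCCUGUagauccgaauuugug
miR-10b-5p: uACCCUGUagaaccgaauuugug
miR-196a-5p: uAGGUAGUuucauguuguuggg
miR-196b-5p: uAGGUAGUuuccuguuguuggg
miR-615-3p: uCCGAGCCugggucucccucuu
The miR-10 pair shares a seed and differs by U12A (miR-10a-5p first, counted from the 5′ end), and the miR-196 pair shares another seed and differs by A12C (miR-196a-5p first). Mir10a, beside Hoxb4 at chr11:96317186-96317208 on the plus strand, had 6.12 with the HMGN1 virus and 7.50 with the control virus. Mir10b, at the Hoxd4 gene, at chr2:74726074-74726096 on the plus strand, had 7.06 with the HMGN1 virus and 6.79 with the control virus. All 3 genes of the miR-196 family were likewise under the floor, with Mir196a-1 (Hoxb side) at 18.5 with the HMGN1 virus and 23.3 with the control virus, Mir196a-2 (Hoxc) at 23.6 with the HMGN1 virus and 29.3 with the control virus, and Mir196b (Hoxa) at 43.5 with the HMGN1 virus and 44.2 with the control virus. The exception was Mir615, which lies inside Hoxc5 and had 128 with the HMGN1 virus and 140.0 with the control virus, while Hoxc5 had 32.9 with the HMGN1 virus and 36.9 with the control virus. These probe sets are assigned to the microRNA gene, and the sources used here do not say which arm or precursor they detect. Of the long noncoding RNAs of the clusters, Hottip at the end of Hoxa had 37.5 with the HMGN1 virus and 45.9 with the control virus, and Haglr in Hoxd had 27.4 with the HMGN1 virus and 29.2 with the control virus, both under the floor.

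Of 8 analysed cofactors of the Pbx, Meis and Prep (Pknox) families, which bind DNA together with Hox proteins, 8 were above background, against 58.3% of all genes. With the HMGN1 virus 6 of the 8 were higher and 2 lower, where 60.4% of all genes above background were higher. The median difference of the cofactors was 0.02, and that of all genes above background was 0.03. Meis2 had 2574 with the HMGN1 virus and 2554 with the control virus, and Pbx3 had 716 with the HMGN1 virus and 743 with the control virus, a difference of -0.05. Pknox2 had the largest difference, at 268 with the HMGN1 virus and 209 with the control virus (0.34), followed by Meis3 (0.09), and Pknox1 had the lowest (-0.08). These factors also have Hox-independent roles in forebrain.

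Of 30 analysed genes in the Polycomb list 29 were above background, again against 58.3% of all genes. Of the 30, 17 were higher and 13 lower, and the median difference was 0.03, as was that of all genes above background. The list also counts Kdm6a (-0.10) and Kdm6b (-0.07), demethylases that remove the Polycomb methyl mark. Ezh2, the enzyme that methylates histone H3, had 1764 with the HMGN1 virus and 1588 with the control virus (0.15), and Bmi1, a subunit of the second complex that restrains Hox genes in the mouse, had 615 with the HMGN1 virus and 496 with the control virus (0.30). Phf1 (-0.20) and Cbx2 (-0.15) were at the low end. Of 16 genes upstream of Hox, 10 were above background, or 62.5%, close to the 58.3% of all genes, with 7 higher, 8 lower and 1 identical and a median of -0.01. Kmt2a, the methyltransferase that keeps Hox genes active, had 920.0 with the HMGN1 virus and 879.9 with the control virus. Cdx1, a caudal activator of Hox genes, lay near the floor at 103 with the HMGN1 virus and 114 with the control virus (-0.12), while Cdx2 had 56.2 with the HMGN1 virus and 63.3 with the control virus and Cdx4 had 10.8 with the HMGN1 virus and 14.5 with the control virus. Cyp26b1, which degrades retinoic acid, an inducer of Hox genes, had 104 with the HMGN1 virus and 89.9 with the control virus (0.18), Kmt2d differed by 0.06 and Wnt3a by -0.07.

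Regional markers were set beside the forebrain label. All 10 analysed forebrain genes were above background, from Six3 at 131 with the HMGN1 virus and 124 with the control virus to Dlx1 at 2369 with the HMGN1 virus and 2587 with the control virus, and Otx2 had the same value of 244 on both arrays. All 12 neural precursor genes were above background too, against 58.3% of all genes. Sox1, a precursor transcription factor, had the lowest difference of any list member above background, at 467 with the HMGN1 virus and 601 with the control virus (-0.35), followed in its list by Prom1 (-0.24), and Slc1a3 (0.15) and Pax6 (0.11) were at the high end. In the forebrain list the extremes were Dlx1 (-0.13), Dlx2 (-0.09), Pax6 and Emx2 (0.16). Of 10 hindbrain and cord genes 4 were above background, or 40.0%, against 58.3% of all genes. They were Lbx1 at 123 with the HMGN1 virus and 106 with the control virus, Dbx1 at 111 with the HMGN1 virus and 105 with the control virus, Gbx2 at 102 with both viruses, and Lhx4 at 93.7 with the HMGN1 virus and 97.3 with the control virus. These intensities lay in or next to the range of the 4 Hox genes above background. Gbx2 and Dbx1 are also used in parts of the forebrain. Of 9 midbrain genes 2 were above background (Otx2, which the forebrain also uses, and Lmx1b, -0.13). Of the 25 patterning factors mainly of tissues outside the brain 6 were, or 24.0%, ranging up to 124 with the HMGN1 virus and 137 with the control virus, with Tbx6 (-0.27) and Myod1 (-0.25) lowest and Pax1 (-0.11) and Tbx1 (0.09) at the high end.

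Other cells could add their RNA to such a culture, and mesenchyme, pericyte, blood and macrophage genes were therefore set beside the 4 Hox signals. These genes are not particular to the trunk, so they cannot tell whether tissue that uses Hox genes was present. Of 12 mesenchyme and pericyte genes 6 were above background, a smaller share than the 58.3% of all genes, with the list running from 21.7 to 151 on the HMGN1 virus array and from 20.4 to 167 on the control virus array. Among the 6, Col1a1 had 144 with the HMGN1 virus and 167 with the control virus (-0.19). Prrx1 had 151 with the HMGN1 virus and 154 with the control virus, and Acta2 had 122 with the HMGN1 virus and 126 with the control virus. Col3a1 differed by -0.12, Pdgfrb by 0.04 and Col1a2 by 0.12. Lum, Tbx15, Meox1, Postn, Dcn and Twist1 were under the floor. Of 8 blood and macrophage genes 1 was above background (Cd68, 126 with the HMGN1 virus and 132 with the control virus), and Ptprc, the pan-leukocyte marker, had 40.8 with the HMGN1 virus and 41.0 with the control virus. The part of other cells in the 4 Hox signals was not tested.

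**Figure D4:**
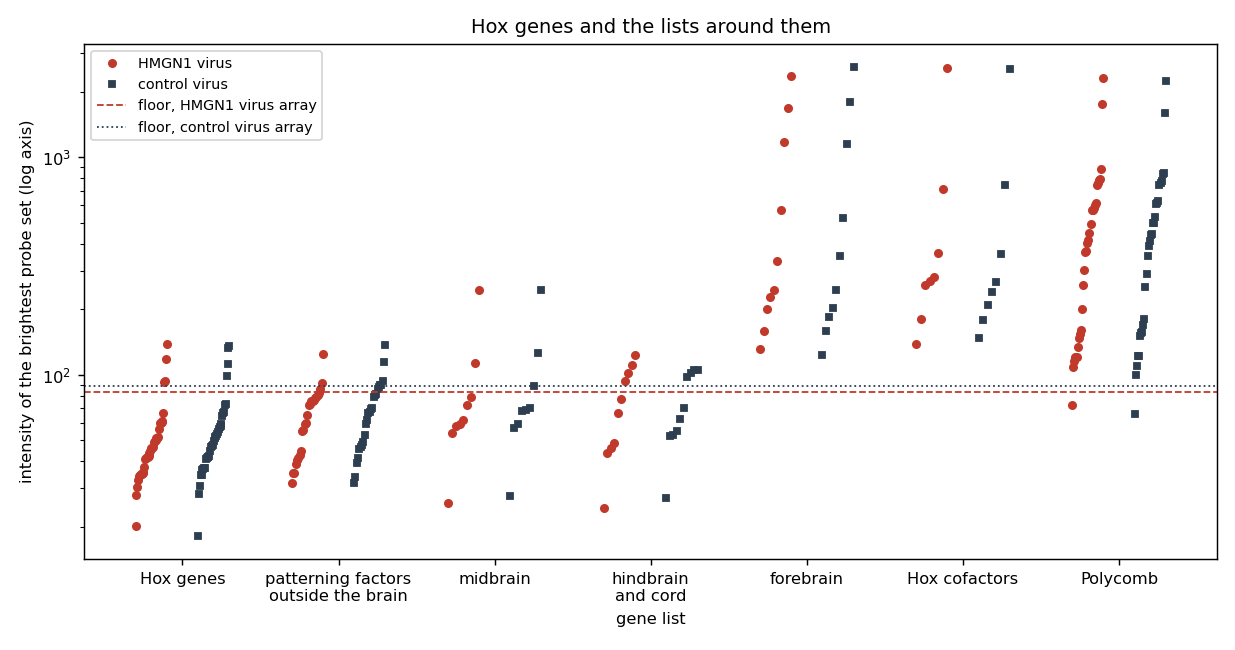
Intensity of the brightest probe set of each gene (log axis) on the HMGN1 virus array (circles) and the control virus array (squares) for the Hox genes and 6 lists, with the floor of each array as a line. Of the Hox genes 33 of 37 lie under the floors, whereas the forebrain genes and Hox cofactors shown all lie over them.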

How the data were processed

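RNA of 2 groups, 1 array each, was measured on 1-colour whole-transcript arrays after biotin labelling with the GeneChip kit, per the labels' protocols. The authors deposited linear intensity values for 28944 probe sets, with medians of 98.8 (HMGN1 virus) and 101 (control virus); background correction, normalization and summarisation are not given in the sources used here. No further normalization was applied. By GEO's platform annotation, 21789 probe sets carried 1 symbol, 1621 carried several and 5534 were unnamed here. All 37 Hox genes matched RefSeq (GRCm38.p6) by gene number. The table names no build, so RefSeq gave only gene order and printed sequences.

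Differences are HMGN1 virus minus control virus on log2(intensity + 16), which understates changes of dim genes. Each gene took its brightest probe set. With 1 array per group no test was run, and genes were counted by size (1.5-fold). Alternatives were other floors, quantile normalization, centring, loess (span 0.3), offsets of 1 and 64, and other sizes. Members and lists were chosen with earlier results of these data known. Named genes were the members above or next to the floor, the 3 highest and 3 lowest members, Hoxa2, Hoxb1, Hoxb2, Hmgn1, Otx2, and the 2 highest and 2 lowest differences above the floor in each list; neighbours of the clusters, microRNA and other genes were chosen after their values were seen. Code (Python 3.11.15, pandas 2.3.3, statsmodels 0.14.6) was tested on simulated data.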

Additional observations from a re-analysis of the deposited data

How the results depend on the processing

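The count of Hox genes above background, 4, became 2 (Hoxb3 and Hoxa4) when the floor was moved to the 99th percentile of the olfactory receptors, 6 with the 95th vomeronasal receptor percentile, 3 with the median of named probe sets, and was 4 under the other settings tried. With the 99th percentile the anterior genes above background numbered 1, the hindbrain and cord genes 1, the genes upstream of Hox 6 and the patterning factors outside the brain 1, since that floor is higher by construction. No Hox gene above background passed a log2 difference of 0.32, 1.5-fold or 2-fold. With members under the floor kept and 0.32 as the size, a setting added after seeing the data, 1 gene was lower (Hoxb13). The median difference of all Hox genes ran from -0.12 (offset of 1) to -0.06 (offset of 64), and the number lower from 24 (quantile normalization) to 29 (centring). Hoxb3 ran from 0.02 to 0.03, Hoxb1 from -0.27 to -0.17, Hoxa4 from -0.16 to -0.11 and Hoxb9 from -0.09 to -0.05, with no change of sign. Among members under the floor, Hoxb13 ran from -0.44 to -0.19 and Hoxa5 from -0.43 to -0.17. Each gene has 1 probe set, so averaging probe sets changes nothing. No paired analysis was possible because there is only 1 array per virus, and none could be left out. Signal near the background limits all Hox values here.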
